A study of Mus musculus with 6 samples.

Results

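Thioredoxin, peroxiredoxin and sulfiredoxin genes make up one of the main peroxide-removing systems of animal cells. The report covers 10 of them, Txn1, Txnrd1, Txnrd2, Txnip, Srxn1, Prdx1, Prdx2, Prdx3, Prdx5 and Prdx6, out of 39179 genes in the deposited table. Members were taken by their symbol in that table, and each of the 10 matched a single row. The transcripts were sequenced from liver endothelial cells of male mice, wild-type 129S6/SvEvTac, that ate a purified AIN-93G diet for 4 weeks, from 3 to 7 weeks of age. In the control_iron group (3 biological replicates) iron came as ferric citrate at 37 ppm. In the high_iron group (3 biological replicates) the diet contained 10000 ppm carbonyl iron, so the form of iron differed as well as its amount. Flow sorting selected for CD31 and CD146 and against CD45, CD64, MHCII and a set of lineage markers. No transgene or deletion was involved, and whether a replicate is 1 mouse or a pool is not given in the sources used here.

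In this system a peroxiredoxin reduces a peroxide with a cysteine, which becomes oxidized in turn. Thioredoxin (Txn1 in the cytosol) restores most peroxiredoxins, and thioredoxin reductase (Txnrd1 in the cytosol, Txnrd2 in mitochondria), a selenium-containing enzyme, restores thioredoxin with electrons from NADPH. When peroxide is plentiful the peroxiredoxin cysteine can be overoxidized, and sulfiredoxin (Srxn1) is the enzyme that repairs it. Txnip binds reduced thioredoxin and also acts as an alpha-arrestin that lowers glucose uptake. Txnrd1, Srxn1 and Prdx1 are textbook targets of NRF2, a transcription factor that binds antioxidant response elements, and Txnip is a textbook target of the glucose-sensing factors MondoA and ChREBP, which bind carbohydrate response elements.

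The promoters of the members are shown first because members that carry the same element can then be read beside their levels. RefSeq promoters on GRCm38.p6, from 250 bases before to 50 after a transcript start, were found for 9 of the 10 members, 11 promoters in all; Prdx6 had no entry. They were searched on both strands for the core of the antioxidant response element, TGACNNNGC, which was present in 12.4% of 32851 promoters of the same length, and for the carbohydrate response element, a pair of E-box-like sequences, present in 0.365% of them. The first motif was found in a promoter of 3 members, Txnrd1, Srxn1 and Prdx1, once each and in each case on the strand opposite to the gene. The second was found in Txnip alone among the 9. No promoter of a member held both motifs. In the sequences below, capitals mark the fixed bases of the match; those of Txnrd1, Prdx1 and Txnip are the 150 bases before the start, and that of Srxn1 is the 30 bases around its match, which lies after the start.
Txnrd1, chr10:82859056-82859205, plus strand, the middle one of its 3 listed starts: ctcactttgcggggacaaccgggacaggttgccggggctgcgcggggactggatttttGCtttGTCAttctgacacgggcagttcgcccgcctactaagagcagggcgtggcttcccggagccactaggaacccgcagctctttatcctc
Srxn1, chr2:152105542-152105571, plus strand: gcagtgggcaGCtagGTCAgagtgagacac
Prdx1, chr4:116685449-116685598, plus strand: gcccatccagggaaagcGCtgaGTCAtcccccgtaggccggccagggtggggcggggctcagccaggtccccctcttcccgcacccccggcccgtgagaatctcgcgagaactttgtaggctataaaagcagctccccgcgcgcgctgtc
Txnip, chr3:96557807-96557956, plus strand: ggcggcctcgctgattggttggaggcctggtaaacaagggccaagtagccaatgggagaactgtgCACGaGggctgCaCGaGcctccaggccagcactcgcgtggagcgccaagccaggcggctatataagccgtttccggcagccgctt
Counted from the start, the match began at base -92 in Txnrd1, 29 in Srxn1, -133 in Prdx1 and -85 in Txnip. A match is a description of these letters and not a measured binding site. The 3 members with the antioxidant core had the 3 highest fold changes of the 10, described next. The motif search was made after fold changes of some members were known. Its motif was that of NRF2, whose textbook targets include these 3, so their match to the fold changes is no separate support. The 12.4% counts single promoters, while Txnrd1 had 3, and Prdx6 could not be searched.

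The comparison asked how the transcripts of this system differ in liver endothelial cells after dietary iron loading. The cytosolic reductase Txnrd1 and the repair enzyme Srxn1 rose on the high-iron diet, by 4.80-fold and 4.65-fold in mean CPM (reads scaled to a common library size). Prdx1, the most abundant peroxiredoxin, was 1.77-fold higher without passing the test, and Txnip was 1.28-fold lower without passing it. The other 6 members, Txn1, Txnrd2, Prdx2, Prdx3, Prdx5 and Prdx6, overlapped between the groups. Each of the 10 passed the filter on low values (3 or more libraries at 1 CPM or above), and 2 of the 10 were called by limma at an adjusted p under 0.05, both higher. Over all 12980 genes tested the share called was 1.02%, of which 0.832% were higher and 0.193% lower. The members' median log2 fold change was 0.13, beside -0.0034 over all genes tested. For 4 of the 10 members no library of one group lay within the range of the other (3 higher, 1 lower), beside 17.9% of all genes tested (9.46% higher, 8.44% lower).

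**Figure D1:**
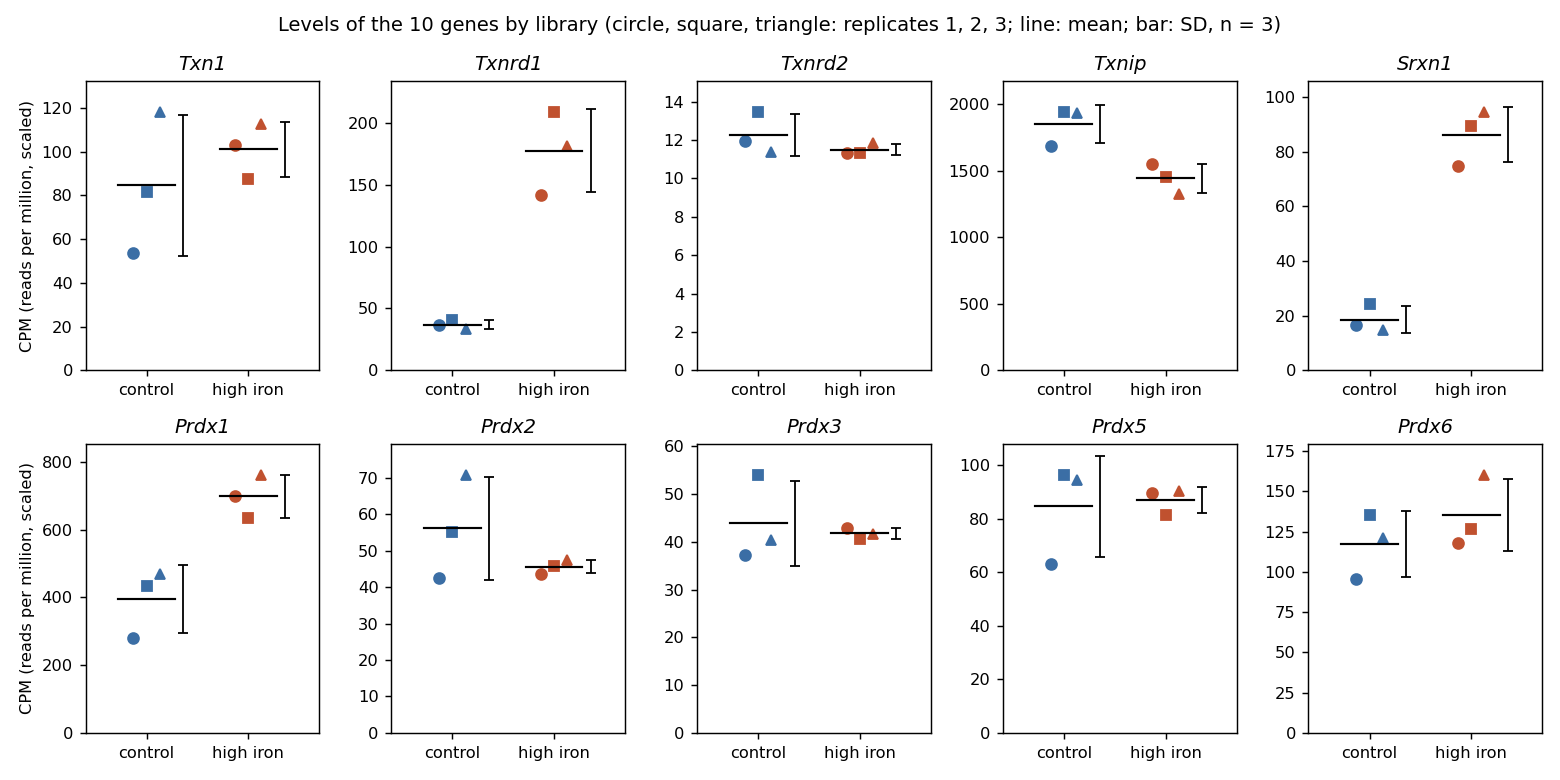
CPM of each of the 10 genes (vertical axes, starting at 0, one scale per gene) in the 3 control and 3 high-iron libraries; markers are replicates, lines are means and bars are SD, n = 3. Txnrd1, Srxn1 and Prdx1 lie higher in every high-iron library than in any control library, Txnip lies lower, and the other 6 genes overlap.

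Txnrd1 (ENSMUSG00000020250; chromosome 10, 82833951 to 82897712 on the plus strand of GRCm38, with 15 merged exons in GENCODE M21) had 36.8, 40.8 and 33.5 CPM in the control libraries, in the order of replicates 1, 2 and 3 used throughout. It had 142, 209 and 182 CPM in the high-iron libraries. Every high-iron library was far above every control library, and the high-iron libraries also differed among themselves, with replicate 1 the lowest. Its mean was 37.0 ± 3.67 CPM in controls and 178 ± 33.6 CPM on high iron (SD, n = 3 per group). Its log2 fold change on the log2(CPM + 1) scale was 2.22 ± 0.17 (± SE; limma adjusted p = 3.3e-04), with a 95% interval of 1.85 to 2.59. With any 1 library left out the adjusted p stayed at or below 0.0056.

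Srxn1 (ENSMUSG00000032802; chromosome 2, 152105516 to 152111376, plus strand, 2 merged exons) had 16.7, 24.2 and 14.8 CPM in the controls. On high iron it had 74.8, 89.4 and 94.5 CPM. Every high-iron library was above every control library, and control_iron replicate 2 was the highest of the controls for Srxn1 as for Txnrd1. Its mean was 18.5 ± 4.99 CPM in controls and 86.3 ± 10.2 CPM on high iron (SD, n = 3 per group), and its log2 fold change was 2.18 ± 0.20 (± SE; limma adjusted p = 8.8e-04) with a 95% interval of 1.74 to 2.62. Its adjusted p was at most 0.012 with any 1 library left out. The 95% intervals of Txnrd1 and Srxn1 overlapped, and the difference between their changes was not tested.

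Txnrd2 (ENSMUSG00000075704; chromosome 16, 18426384 to 18479073, plus strand), the mitochondrial reductase, did not move with its cytosolic paralog. It had 11.9, 13.5 and 11.4 CPM in the controls and 11.3, 11.3 and 11.8 CPM on high iron. The groups overlapped, and the log2 fold change was -0.08 ± 0.18 (± SE; limma adjusted p = 0.87). Its 95% interval of -0.48 to 0.31 lay wholly below that of Txnrd1.

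Txn1 (ENSMUSG00000028367; chromosome 4, 57943373 to 57956411, minus strand), the thioredoxin that Txnrd1 reduces, had 53.8, 81.8 and 118 CPM in the controls. On high iron it had 103, 87.6 and 113 CPM. All 3 high-iron values lay between the lowest and the highest control, and the means were 84.6 ± 32.3 and 101 ± 12.6 CPM (SD, n = 3 per group). The log2 fold change was 0.32 ± 0.25 (± SE; limma adjusted p = 0.62) with a 95% interval of -0.24 to 0.87. Without control_iron replicate 1 the log2 fold change was 0.03, and without control_iron replicate 3 it was 0.59.

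Txnip (ENSMUSG00000038393; chromosome 3, 96557957 to 96561883, plus strand), the thioredoxin-binding arrestin, was the most abundant member in CPM, with 1687, 1942 and 1932 CPM in the controls. It had 1548, 1452 and 1329 CPM in high_iron replicates 1 to 3. Each high-iron library was below each control library, yet the gap of replicate 1 to the lowest control was small. The mean was 1854 ± 144 and 1443 ± 110 CPM (SD, n = 3 per group), and the log2 fold change of -0.36 ± 0.15 (± SE) had an unadjusted 95% interval of -0.70 to -0.02. It did not pass the test (limma adjusted p = 0.38). An antisense gene, Gm15441, overlaps 19.4% of the merged exon length of Txnip. Gm15441 was at 2.37 ± 0.805 and 1.24 ± 0.576 CPM (SD, n = 3), small beside Txnip. If the libraries do not mark strand, which was not checked, reads of the pair cannot be told apart where they overlap.

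Among the peroxiredoxins, Prdx1 (ENSMUSG00000028691; chromosome 4, 116685544 to 116700822, plus strand), which is cytosolic and is restored by thioredoxin and, when overoxidized, by sulfiredoxin, had 281, 433 and 471 CPM in the controls. It had 699, 635 and 763 CPM on high iron. Every high-iron library was above every control library, while control_iron replicate 1 stood well below the other controls. The mean was 395 ± 100 and 699 ± 63.8 CPM (SD, n = 3 per group). The log2 fold change of 0.85 ± 0.20 (± SE), with a 95% interval of 0.41 to 1.29, missed the threshold in limma (adjusted p = 0.085) and in edgeR (adjusted p = 0.13), and passed it in DESeq2 (adjusted p = 0.0043), which called 3.27% of the genes it gave an adjusted p, 2.53% higher. It has 2 processed pseudogenes that are nearly identical: Gm21399 matches 83.3% of a Prdx1 coding transcript at 98.3% identity and was at 94.2 ± 22.6 and 171 ± 18.3 CPM (SD, n = 3), and Gm7204 was between 0.571 and 1.46 CPM. In CPM Gm21399 amounted to 24.3% of the mean of Prdx1. Per kilobase of deposited length it was higher, at 221 RPKM over the 6 libraries beside 177 RPKM for Prdx1. How reads were assigned between them is not given in the sources used here. With both copies added to Prdx1, an alternative chosen after seeing the data, the log2 fold change was 0.86 (limma adjusted p = 0.084).

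Prdx2 (ENSMUSG00000005161; chromosome 8, 84969587 to 84974834, plus strand), the other cytosolic enzyme of this type and a major protein of red blood cells, had 42.6, 55.1 and 70.9 CPM in the controls and 43.7, 45.8 and 47.4 CPM on high iron. The high-iron libraries lay within the range of the controls, and the log2 fold change was -0.27 ± 0.18 (± SE; limma adjusted p = 0.59; 95% interval -0.68 to 0.15). Exons of Rnaseh2a and Junb on the opposite strand overlap 5.80% and 5.67% of its exon length. A processed pseudogene listed as Gm7110 matches 53.3% of a coding transcript and was at 8.92 ± 2.36 and 8.16 ± 0.408 CPM (SD, n = 3). Hemoglobin and other erythroid markers, present in the same libraries, summed to 1164 to 3794 CPM in the controls and 835 to 4766 CPM on high iron, with high_iron replicate 2 the highest; their part in Prdx2 was not tested.

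Prdx3 (ENSMUSG00000024997; chromosome 19, 60864051 to 60874556, minus strand) is the mitochondrial peroxiredoxin and had 37.2, 54.1 and 40.4 CPM in the controls and 43.0, 40.7 and 41.7 CPM on high iron. Its high-iron values lay inside the control range, with a log2 fold change of -0.05 ± 0.17 (± SE; limma adjusted p = 0.92; 95% interval -0.42 to 0.32). Prdx5 (ENSMUSG00000024953; chromosome 19, 6906697 to 6910106, minus strand), found in mitochondria, peroxisomes and cytosol, had 62.9, 96.4 and 94.3 CPM in the controls and 89.4, 81.3 and 90.1 CPM on high iron. The lowest and the highest of its 6 values were both controls, and the log2 fold change was 0.06 ± 0.18 (± SE; limma adjusted p = 0.90; 95% interval -0.33 to 0.46). Exons of Trmt112 overlap 19.1% of the exon length of Prdx5 on the opposite strand; Trmt112 was at 2.24 ± 0.218 and 2.21 ± 0.534 CPM (SD, n = 3).

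Prdx6 (ENSMUSG00000026701; chromosome 1, 161240112 to 161251219, minus strand) has a single active cysteine and is reduced by glutathione rather than thioredoxin. It had 95.5, 135 and 121 CPM in the controls and 118, 127 and 160 CPM on high iron. High_iron replicate 3 was the highest of the 6 libraries, and the other high-iron values lay within the controls. The log2 fold change was 0.20 ± 0.17 (± SE; limma adjusted p = 0.64; 95% interval -0.18 to 0.59).

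**Figure D2:**
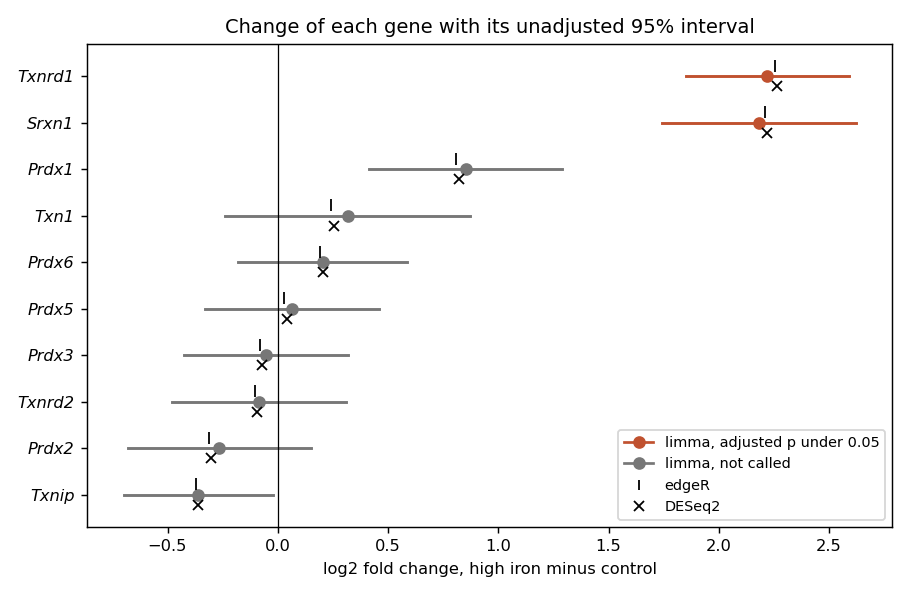
Log2 fold change of each gene, high iron minus control (horizontal axis), with its unadjusted 95% interval from limma; ticks and crosses are the edgeR and DESeq2 estimates from the same libraries. Txnrd1 and Srxn1 lie near 2.2, Prdx1 at 0.85 and Txnip at -0.36, and the intervals of the other 6 include 0.

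Within the control group, replicate 1 had the lowest value for 7 of the 10 members (Txn1, Txnip, Prdx1, Prdx2, Prdx3, Prdx5 and Prdx6), and replicate 2 the highest for 7. Txnrd1, Txnrd2 and Srxn1 were instead lowest in control_iron replicate 3. Spread between controls was far above counting error: for Txn1 the control SD was 38.2% of the mean, where the reads alone would give 2.56%, and for Prdx1 it was 25.4% against 1.16%. For Txnrd2, with 154 to 290 reads per library, the control SD of 8.76% was close to the 6.51% from counting. High-iron libraries had the smaller SD relative to the mean for 9 of the 10 members, with 2.55% for Txnrd2 and 2.75% for Prdx3, though the groups were close for Txnip (7.80% in controls, 7.59% on high iron) and Prdx6 (17.2% and 16.5%). Txnrd1 was the exception, at 9.92% of the mean in controls and 18.9% on high iron. For Txnrd2 and Prdx3 the high-iron reads alone would give 7.33% and 3.85%, more than the SD seen. An SD of so few libraries can fall below counting error, so these values do not show a tighter group. Leaving out control_iron replicate 1 gave Prdx5 a log2 fold change of -0.13, and leaving out control_iron replicate 2 gave Prdx3 one of 0.10, both the reverse of the sign with all libraries.

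Levels of different genes can be compared only per length, here in RPKM, CPM per kilobase of the deposited gene length. Averaged over the 6 libraries, the order was Txnip (468 RPKM), Prdx1 (177), Txn1 (88.7), Prdx5 (40.2), Prdx6 (32.0), Txnrd1 (31.6), Prdx3 (29.1), Srxn1 (18.3), Prdx2 (15.9) and Txnrd2 (3.43). On this scale Txnip stood above Prdx1, Txn1 above Prdx5, and Prdx2 above Txnrd2 with no overlap of their libraries; other neighbours overlapped in range, though Prdx1 exceeded Txn1 and Prdx5 exceeded Prdx6 in 6 of 6 libraries. The position of Txnrd1 depended on the diet. Txnrd1 was at 10.9 ± 1.08 RPKM in controls, below Prdx3 at 29.8 ± 6.08, and at 52.2 ± 9.87 RPKM on high iron, above Prdx3 at 28.4 ± 0.780 (SD, n = 3). Srxn1 was at 6.49 ± 1.75 RPKM in controls and 30.2 ± 3.57 RPKM on high iron. Deposited lengths exceed those of the coding transcripts for some members, and with the median coding transcript of GENCODE M21 Prdx1, at 827 CPM per kilobase, came before Txnip at 586. Prdx5, at 120, then also came before Txn1 at 88.3, and Prdx2, at 33.9, came before Txnrd1 (32.3), Prdx3 (29.0) and Srxn1 (18.6), so the order of these genes depends on the length used.

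Because the enzymes act on each other, 3 ratios of RPKM within a library were compared. A ratio within a library does not depend on how libraries were scaled, but its size depends on the deposited lengths. With 3 against 3 libraries the exact two-sided permutation test cannot go below p = 0.10. Txnrd1 per Txn1 was 0.210, 0.153 and 0.0871 in the controls and 0.425, 0.734 and 0.496 on high iron. The groups did not overlap (3.67-fold in the mean; exact permutation p = 0.10), and the reductase transcript stayed below that of its substrate in every library. Srxn1 per summed Prdx1 to Prdx4, the peroxiredoxins it is known to repair, was 0.0361, 0.0358 and 0.0207 in the controls and 0.0841, 0.110 and 0.0996 on high iron. These groups did not overlap either (3.18-fold; exact permutation p = 0.10). Txnip per Txn1 was 9.31, 7.05 and 4.85 in the controls and 4.46, 4.92 and 3.51 on high iron, where high_iron replicate 2 exceeded control_iron replicate 3 (0.608-fold; exact permutation p = 0.20). No adjusted value of these 3 tests can be lower than the raw one.

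Prdx1 also took a larger share of the peroxiredoxin transcripts, weighted by the deposited lengths. Its share of the summed RPKM of Prdx1 to Prdx6 was 42.2% to 46.9% in the controls and 58.0% to 59.5% on high iron, with no overlap (44.5 ± 2.33% and 58.8 ± 0.746%, SD, n = 3; exact permutation p = 0.10). The summed level was 216 to 325 RPKM in the controls and 354 to 415 RPKM on high iron. Reads counted to the Prdx1 pseudogene Gm21399 are not in these shares or sums. Prdx4, which belongs to the endoplasmic reticulum and is no member here, held 14.4 ± 0.885% and 10.6 ± 0.530% of the sum. Shares of Prdx2, Prdx3, Prdx4 and Prdx5 lay lower in every high-iron library than in any control, while none of these genes was called on its own level; a share falls when another member's rises. The summed CPM of all 10 members was 2703 ± 327 in controls and 2828 ± 46.3 on high iron. Txnip alone made up 1854 and 1443 CPM of these sums, which add genes of unlike length. A similar sum thus does not show that the members were unchanged.

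**Figure D3:**
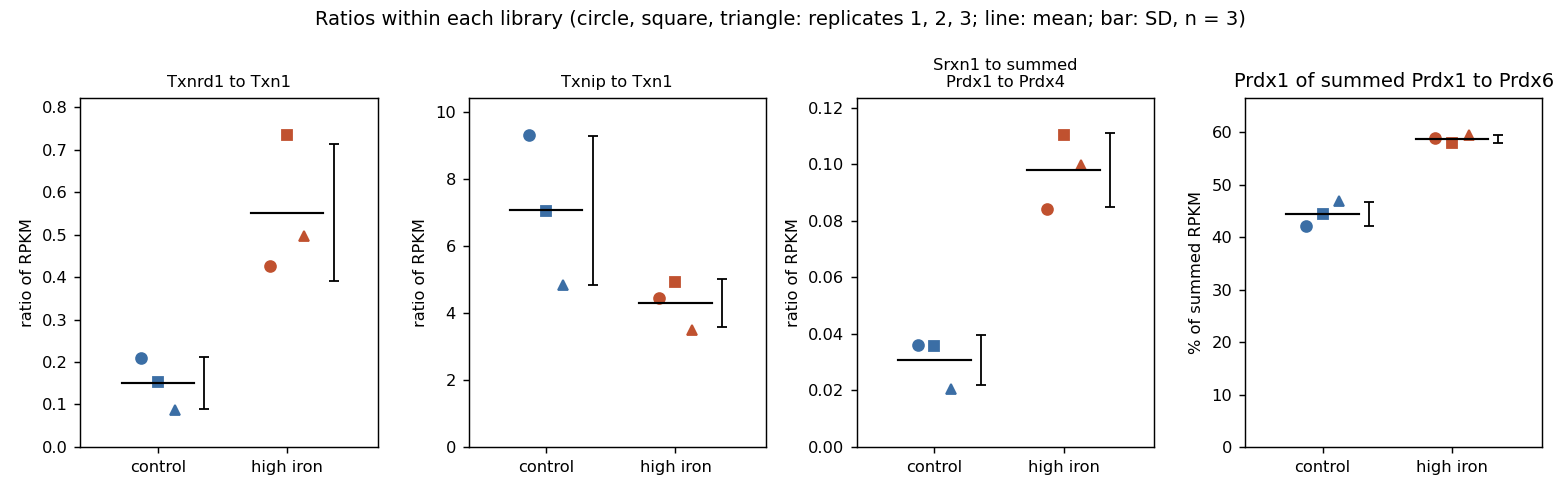
Ratios of RPKM within each library (first 3 panels) and the percent of summed RPKM of Prdx1 to Prdx6 held by Prdx1 (last panel), by group; markers are replicates, lines are means and bars are SD, n = 3, and axes start at 0. Txnrd1 per Txn1, Srxn1 per Prdx1 to Prdx4 and the Prdx1 share do not overlap between the groups, while Txnip per Txn1 does.

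Other genes of the thioredoxin world were taken from 5 lists. None of the 57 tested genes on them was called by limma, edgeR or DESeq2, while 9 had an unadjusted p under 0.05 in limma, beside 12.1% of all genes tested. Of 22 other thioredoxin-fold and peroxiredoxin genes, 13 had a log2 fold change above 0 and the median was 0.03. Pdia3 and P4hb, disulfide isomerases of the endoplasmic reticulum and the most abundant per length, differed by 0.04 and 0.41 on the log2 scale (limma adjusted p = 0.96 and 0.55). Of 10 tested glutaredoxin, methionine sulfoxide reductase and sestrin genes, the median was 0.03. Msrb3, a methionine sulfoxide reductase, was at 384 ± 17.2 and 401 ± 23.5 CPM (SD, n = 3), and Glrx5, a mitochondrial glutaredoxin of iron-sulfur cluster assembly, differed by 0.12 on the log2 scale (limma adjusted p = 0.76). Sesn3 did not pass the filter on low values.

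Of 7 alpha-arrestin and glucose-sensing factor genes, relatives and regulators of Txnip, 5 had a log2 fold change above 0 and the median was 0.18. Arrdc1 and Mlxip, which encodes MondoA, each differed by -0.22 on the log2 scale (limma adjusted p = 0.54 and 0.66). They were named as the most abundant per length and lay at the low end of the list, which ran up to 0.50. For 3 of the 7 genes the groups did not overlap, all higher on high iron, beside 9.46% of all genes tested. Of 9 genes of thioredoxin clients the median was 0.02; Papss1, which makes activated sulfate, differed by -0.0051 on the log2 scale (limma adjusted p = 0.99). Of 9 tested genes of selenoprotein synthesis and selenium supply, which serve Txnrd1 and Txnrd2 as selenoproteins, the median was -0.08. Selenop, the selenium carrier listed in the table as Sepp1, was at 17969 ± 3021 and 15168 ± 1378 CPM (SD, n = 3), and Sephs2, which makes the selenium donor, at 37.6 ± 19.5 and 50.2 ± 9.07 CPM; neither passed (adjusted p = 0.72 and 0.53). Lrp8 did not pass the filter on low values.

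**Figure D4:**
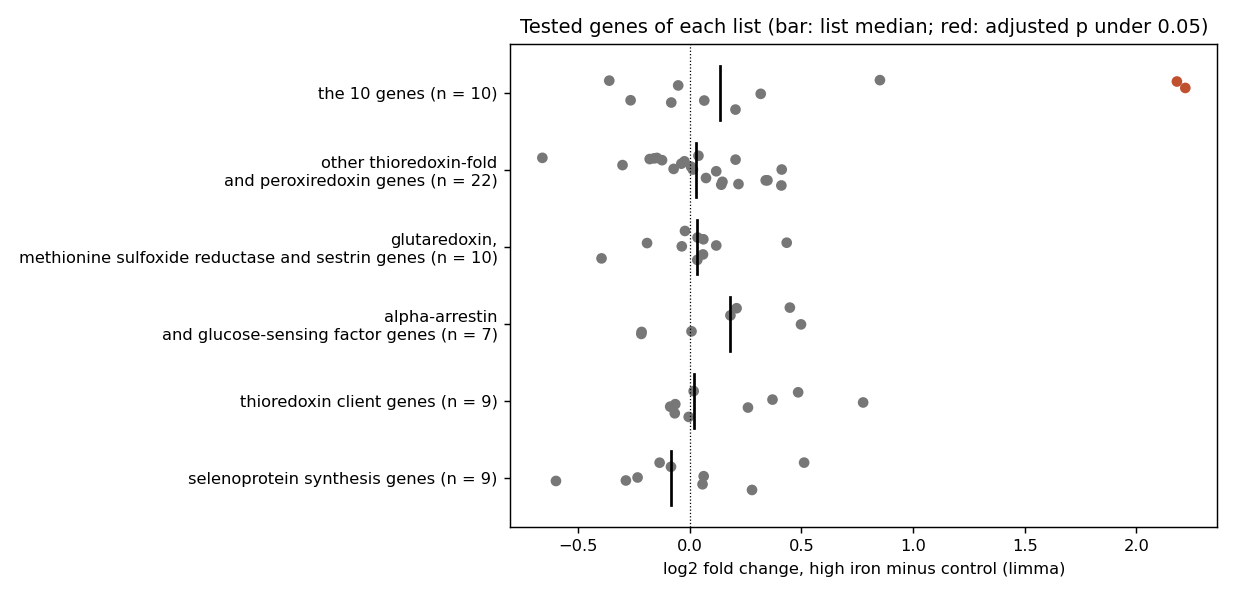
Log2 fold change, high iron minus control (horizontal axis), of each tested gene of the 10 members and of 5 lists of related genes; the vertical bar is the list's median and red marks an adjusted p under 0.05 in limma. Txnrd1 and Srxn1 are the only red points, and the highest list median is 0.18.

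The genes outside the 10 whose pattern over the 6 libraries was most like that of a member were found by the root-mean-square difference of log2(CPM + 1) after each gene's mean was removed. For Txnrd1 the nearest was Gclc, the catalytic subunit of the enzyme that limits glutathione synthesis, at a difference of 0.039, followed by Ccdc150 (0.15) and Gclm (0.17), the modifier subunit of the same enzyme. Gclc had 81.2, 94.5 and 77.2 CPM in the controls and 303, 459 and 391 CPM on high iron, the same order of libraries within each group as Txnrd1. For Srxn1 the nearest were Gclm (0.13), Gclc (0.16) and Akr1b8 (0.22), an aldo-keto reductase. The difference between Txnrd1 and Srxn1 themselves was 0.16. For Txnip the nearest were Alkbh6 (0.047), Gm7672 (0.051) and Ganab (0.054), none of which passed the test (limma adjusted p = 0.45, 0.52 and 0.27). Gm7672 was low, at 1.18 ± 0.124 CPM in controls and 0.658 ± 0.0976 CPM on high iron (SD, n = 3). At such levels the 1 added to the CPM shrinks log2 differences. All these likenesses are descriptions over 6 libraries that share the diet contrast.

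Total reads in genes ranged from 12963510 to 21663543 per library, and a floor of 3 reads lay between 0.139 and 0.231 CPM, far below each member; it covers counting error only. Markers of the sorted cells were high, with 10 endothelial genes summing to 17460 to 19378 CPM in controls and 16697 to 17846 CPM on high iron. Of these 10 genes, 2 had a higher mean on high iron, and the median log2 fold change was -0.19. Among them limma called 0 and DESeq2 called 1. Markers of cells outside the gate were present too. All 16 macrophage markers had a higher mean on high iron, with sums of 78.0 to 183 CPM in controls and 266 to 532 CPM on high iron; 3 of 15 tested (Csf1r, Clec4f and Marco) were called higher by limma, 10 by DESeq2, and none was at 0 in every library. Clec4f, a Kupffer cell receptor and the most abundant of them, had a mean of 21.6 CPM in controls and 94.7 CPM on high iron, a log2 fold change of 2.27 ± 0.40 (± SE; limma adjusted p = 0.035), as large as that of Txnrd1 or Srxn1. Its call was lost without control_iron replicate 3 and without high_iron replicate 1, 2 or 3, with an adjusted p of up to 0.19. Of 14 hepatocyte markers 12 had a higher mean, with sums of 274 to 1079 and 633 to 1203 CPM. Stellate cell markers summed to 51.1 to 403 and 70.1 to 313 CPM and lymphocyte markers to 1.63 to 5.35 and 7.90 to 14.3 CPM, and Cd3e was at 0 in each control library. In sorted bulk RNA, a change in the number of cells of a type and in RNA per cell cannot be told apart.

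Beside the rises of Txnrd1 and Srxn1, the macrophage sum was 532, 266 and 365 CPM in high_iron replicates 1 to 3, while Txnrd1 was at 142, 209 and 182 CPM and Srxn1 at 74.8, 89.4 and 94.5 CPM in them. The high-iron library with the most macrophage RNA thus had the least of both members. Among controls, replicate 2 had the largest macrophage sum, 183 CPM, and the most of both members. Other marker sums did not all follow the macrophage order in high_iron replicates 1 to 3. Hepatocyte sums were 633, 1203 and 915 CPM and stellate cell sums 70.1, 313 and 205 CPM, the order of Txnrd1. Lymphocyte sums, at 14.3, 7.90 and 10.2 CPM, had the macrophage order, and erythroid sums were 1248, 4766 and 835 CPM. In control replicate 2 the hepatocyte, stellate cell and erythroid sums were the largest and the lymphocyte sum the smallest. The part of RNA of any of these cell types in either rise was not tested.

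**Figure D5:**
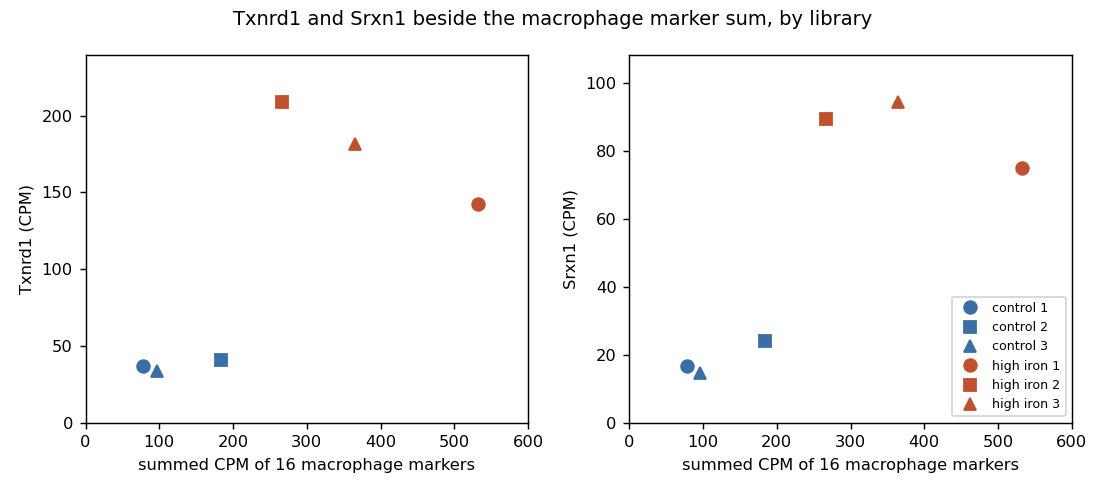
Txnrd1 (left) and Srxn1 (right) in CPM against the summed CPM of 16 macrophage markers, 1 point per library, with axes from 0. High-iron replicate 1 lies farthest right, at 532 CPM, and is the lowest of the high-iron libraries for both genes; control replicate 2, at 183 CPM, is the highest of the controls.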

How the data were processed

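Libraries came from total RNA of sorted liver endothelial cells, by a cDNA kit for low input, per the labels' protocols. The kit was taken not to mark strand, which was not checked in the reads. STAR, HTSeq, edgeR and mm10 are named in the submitters' processing notes, without versions or roles. The deposited CPM values (a signal scaled by the authors' normalized library size) gave back whole reads for 100% of 114253 values above 0 within 0.001, and the totals of these counts ranged from 12963510 to 21663543 per library. The deposited RPKM values divide that CPM by the deposited gene length.

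From these, log2(CPM + 1) was tested with limma (trend) over the 12980 genes that reached 1 CPM in 3 or more libraries; p-values were adjusted by Benjamini-Hochberg and the threshold was 0.05. edgeR's quasi-likelihood test and DESeq2 on the recovered counts were alternatives, with other pseudocounts, filters and scalings and each library left out in turn. Ratios were compared by exact permutation. Gene positions and overlaps came from GENCODE M21 (GRCm38), copies from BLAST+ 2.17.0 (at least 95% identity over at least 50% of a coding transcript). On simulated reads with known changes, the limma procedure recovered 39.4% of 2-fold and 85.9% of 4-fold changes. Of its 139 calls there, 15 were false. A gene that was not called can therefore still differ by 2-fold, and a called gene can be false. Each simulated gene was drawn independently, so differences shared by many genes of a library were not simulated. These rates may therefore not hold in the real libraries. Members and lists were chosen with earlier results of these data known. Of each list of related genes the called genes and the 2 most abundant per length were named, of each marker list the most abundant; Csf1r and Marco were added after their values were seen, as the other called macrophage markers. One gene that this rule names is not reported here. The limma p-values set the difference between groups against the spread between the 3 replicates of a group. In that test the spread of each gene is drawn toward that of genes of like level.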

Additional observations from a re-analysis of the deposited data

How the results depend on the processing

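Txnrd1 and Srxn1 were called under each of the 16 alternatives run on them, and the number of members called was 2 with any 1 library left out; DESeq2 and the replicate block each called 3, adding Prdx1 (log2 fold change 0.82, adjusted p = 0.0043, and 0.85, adjusted p = 0.014). The count over all genes, 133, was less stable: 34 with no filter on low values, 74 without the limma trend, 424 with DESeq2, and 26 to 173 with 1 library left out, falling to 53 without control_iron replicate 3 and to 52, 41 and 26 without high_iron replicates 1, 2 and 3. The cause was not tested. With 1 library left out Prdx3 ranged from -0.16 (without control_iron replicate 1) to 0.10 (without control_iron replicate 2) and Prdx5 from -0.13 (without control_iron replicate 1) to 0.17 (without control_iron replicate 2), so both reversed, and neither was called. When the median coding transcript length replaced the deposited length, an alternative chosen after seeing the data, the log2 ratio of levels reversed for Prdx1 to Txnip (from -1.40 to 0.50), Txn1 to Prdx5 (from 1.14 to -0.44) and Srxn1 to Prdx2 (from 0.20 to -0.87). None of the 5 lists of related genes had a called gene with any 1 library left out. Correlations of deviations from the group means were 0.13, 0.32 and 0.06 for same-numbered libraries 1, 2 and 3. Between libraries of different numbers they ran from -0.39 to 0.20, and not every library correlated best with its own number. Whether libraries of the same number belong together was not settled by these values, and the main test used no pairing. The replicate block moved the count over all genes to 402. Depth limits Txnrd2 most, at 154 reads in its lowest library.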
